A study of Mus musculus with 4 samples.

Results

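The genes described here mark macrophages, the phagocytes that live in the mammary gland between the ducts and in its fat. The list holds 37 genes: pan-macrophage genes, scavenger receptors of tissue-resident macrophages (such as Cd163, Mrc1 and Folr2) and receptors of recruited monocytes (Ccr2 and Cx3cr1). Each gene was represented by its brightest named probe over the 4 arrays, and 36 of the 37 had one, out of 18952 genes with a named probe in the whole series. Array levels of Cd68 were not analysed here. Of the 36 genes, 35 passed the filter on dim probes, which kept probes that were well above background on each array of KO, of WT or of both. The gene whose brightest probe did not pass was Itgam.

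Total RNA came from mammary glands of female mice aged 13 weeks, before tumours had appeared, and was hybridised to 4 one-colour Agilent arrays. All the mice carried the Δ16HER2 transgene, which encodes a shortened human HER2 known to start mammary tumours, so there was no gland without it. The arrays labelled STM KO (KO 1 and KO 2) came from such mice with a knockout of stathmin, a protein encoded by Stmn1 that destabilises microtubules. The arrays labelled WT (WT 1 and WT 2) came from Δ16HER2 mice described as wild type. The labels name neither the promoter of the transgene nor the deleted part of Stmn1. One label calls the tissue epithelial, while all 8 adipocyte and all 8 skeletal muscle markers, like all 10 luminal epithelial markers, were well above background on every array. The labels do not say that each sample was a separate animal, so the tests below measure only the spread between these samples. The comparison asks which macrophage genes of the transgenic gland read differently when stathmin is missing.

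Macrophages in tissues depend on the growth factor receptor encoded by Csf1r. Those that settle in connective tissue and fat carry scavenger receptors and lectins that clear proteins, haemoglobin and cell debris. Cells that arrive from blood as monocytes follow chemokines through Ccr2 and Cx3cr1. In the mammary gland, macrophages are known to accompany the growth of ducts and to clear dying epithelium when milk production ends. In whole glands, fewer cells of a type and less RNA per cell cannot be told apart.

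A level below is log2 of the processed signal relative to the 75th percentile of its array, and a fold change is the mean level of the KO arrays minus that of the WT arrays. Levels of different genes cannot be compared, because each comes from its own probe. Between 54.7% and 66.2% of probe spots were well above background, and no spot was saturated. The brighter Stmn1 probe read 4.56 and 3.34 on the KO arrays, against 5.59 and 3.59 on the WT arrays. Those ranges overlapped, so this probe did not separate the labels. The dimmer Stmn1 probe was not well above background on either KO array and was so on 1 of the 2 WT arrays. It was 4.88-fold lower on the KO arrays when their levels were raised to the lowest level well above background. The WT mean in that value includes the array where the probe was not well above background, so it is not a strict bound. Because the brighter probe does not check the labels, KO and WT mean the genotype each array was labelled with.

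Promoters of 3 genes are shown because their levels carry the main patterns. Trem2 and Cd163 had the smallest unadjusted p-values of the list, and Marco was high on 1 KO array. Each sequence is the 250 bases before the gene's start in RefSeq (GRCm38.p6), 5′ to 3′ on the strand of the gene. The regions are chr17:48346151-48346400 on the plus strand for Trem2, chr6:124304401-124304650 on the plus strand for Cd163 and chr1:120505025-120505274 on the minus strand for Marco. Capitals mark GAGGAA on either strand, the core of sites bound by the myeloid transcription factor PU.1, which is encoded by Spi1.
Trem2: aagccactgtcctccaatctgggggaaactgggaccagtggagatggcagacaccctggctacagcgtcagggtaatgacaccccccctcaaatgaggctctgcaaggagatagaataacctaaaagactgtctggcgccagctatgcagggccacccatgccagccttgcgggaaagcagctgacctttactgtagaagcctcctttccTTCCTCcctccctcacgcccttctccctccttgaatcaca
Cd163: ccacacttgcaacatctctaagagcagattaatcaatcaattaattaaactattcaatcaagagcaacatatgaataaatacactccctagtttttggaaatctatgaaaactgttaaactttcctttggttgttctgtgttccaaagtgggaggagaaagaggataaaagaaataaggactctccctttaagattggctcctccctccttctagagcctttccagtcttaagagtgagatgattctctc
Marco: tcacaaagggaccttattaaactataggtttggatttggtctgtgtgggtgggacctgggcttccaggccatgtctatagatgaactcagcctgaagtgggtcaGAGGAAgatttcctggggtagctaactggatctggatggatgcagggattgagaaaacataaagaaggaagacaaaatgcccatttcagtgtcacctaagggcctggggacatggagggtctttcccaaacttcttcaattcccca

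The Trem2 and Marco windows hold GAGGAA once each, and the Cd163 window does not hold it. Promoters of 28 of the 37 genes were matched in the RefSeq table, and 17 of them held GAGGAA on either strand (60.7%), against 22.5% of the promoters of genes tested on the arrays and 23.1% of all promoters in the table. Those 17 genes included C1qb, C1qc, Ctss, Laptm5, Mrc1 and Stab1. The letters TGCTGA, part of the site of Maf factors, stood in 8 of the 28 (28.6%), against 13.0% of the promoters of tested genes and 15.8% of all promoters. TGANTCA, the letters of the AP-1 site with the middle one left open, stood in 2 of the 28 (7.14%), Trem2 and Cd68. That is near the 6.87% of all promoters, with 4.57% of the promoters of tested genes. The Trem2 match has A in the middle. Both strands were searched, and a TGCTGA match can overlap a TGANTCA match. A match is a description of letters, not a bound site.

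Across the 35 tested genes, the KO arrays read lower more often than higher, by small amounts. The fold change was negative for 26 genes and positive for 9, with a median of -0.18, against -0.0064 over the 13206 genes tested. Both KO arrays lay below both WT arrays for 10 of the 35, a pattern that 17.8% of all tested genes showed. They lay above both WT arrays for 0 of the 35, against 17.7% of all tested genes, and 49.2% of all tested genes had a positive fold change. Trem2, Cd163, Clec10a, Ccr2, C1qc, F13a1, Mrc1, Adgre1, Slc40a1 and Stab1 were the 10. Of these, Ccr2 passed the filter through the WT arrays alone, so its direction adds no support. Marco, among the 9 positive fold changes, passed it through the KO arrays alone, so its direction adds none either.

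No macrophage gene passed limma's test at an adjusted p under 0.05, with adjusted p-values from 0.935 to 0.999. Of all tested genes, 0% were called higher and 0% lower, with a lowest adjusted p of 0.932 from limma. By unadjusted p-values under 0.05, limma gave 4 of the 35 lower (Trem2, Cd163, Clec10a and Ccr2), against 2.41% of all tested genes. It gave 0 of the 35 higher, against 1.14% of all tested genes. Ccr2 entered the test through the WT arrays alone, so its direction adds no support. With only probes well above background on all 4 arrays, limma gave 3 lower. The counts turn on the scaling: with arrays scaled by their medians, the median over all genes became 0.17, while 18 of the 35 fold changes were negative and both KO arrays lay below both WT arrays for 5. They turn on single arrays too. Without WT 2 the median was 0.09 and 16 fold changes were negative, and without KO 2 the median was -0.43 and 32 were negative. Without WT 1 it was -0.48 with 31 negative, and without KO 1 it was -0.12 with 20 negative.

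**Figure D1:**
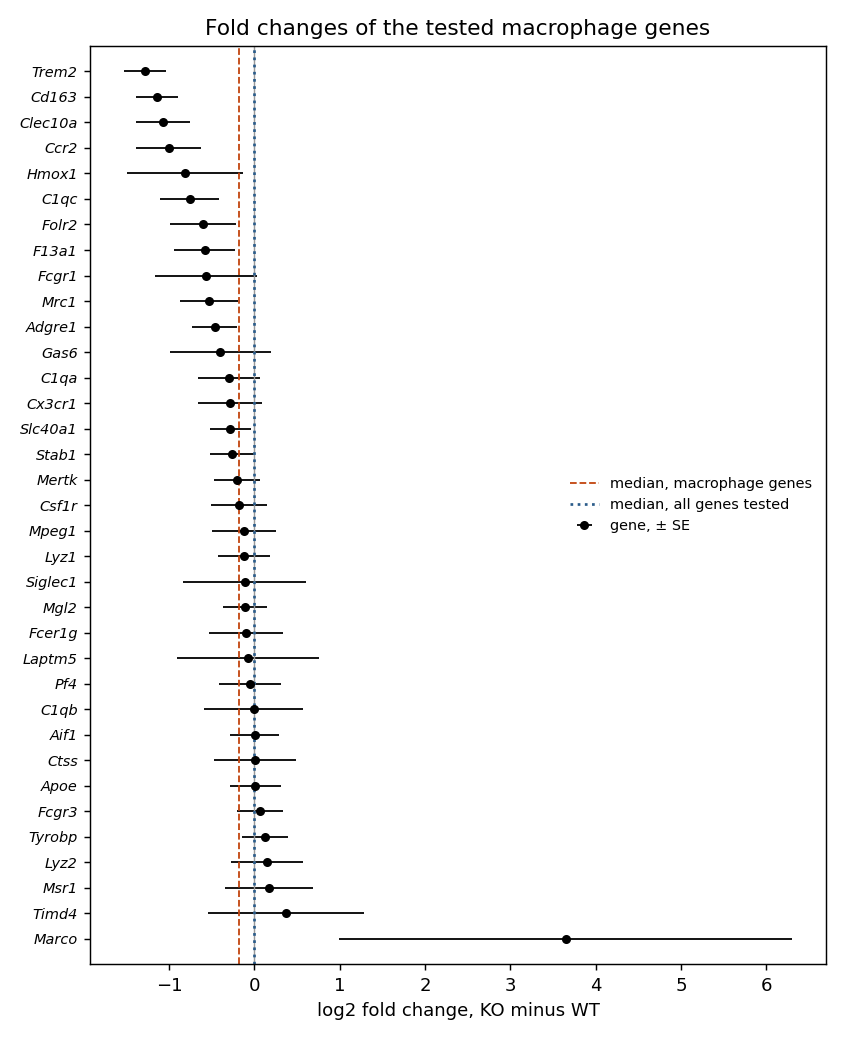
Log2 fold change (KO minus WT, x axis) of the 35 tested macrophage genes, ordered from lowest to highest, with bars of 1 SE from limma (n = 2 arrays per group). The dashed line is the median of these genes at -0.18 and the dotted line that of all 13206 genes tested. Trem2 lies lowest at -1.29, and Marco lies highest at 3.65 with the widest bar.

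Trem2, a receptor for lipids and cell debris on macrophages, had the lowest fold change of the tested genes on the list. It read -0.05 and 0.04 on the KO arrays, against 1.17 and 1.39 on the WT arrays. The groups did not overlap, and the gap between them, 1.13, was wider than the difference between arrays of either group. Its fold change was -1.29 ± 0.25 on the log2 scale (SE, 2 arrays a group, limma, unadjusted p = 0.00293, adjusted p = 0.935), which is 2.44-fold lower on the KO arrays. A second Trem2 probe read -4.14 and -4.32 on the KO arrays, against -2.43 and -2.73 on the WT arrays. It was not well above background on either KO array, which leaves a bound of at least 3.12-fold lower. It passed the filter only through the WT arrays, so its direction adds no support. By the unadjusted p of its brighter probe, the gene ranked 34 of 13206.

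Cd163 encodes the scavenger receptor that takes up haemoglobin bound to haptoglobin and is a standard marker of resident macrophages. It read -2.60 and -2.47 on the KO arrays, against -1.49 and -1.29 on the WT arrays. Both KO values lay below both WT values by at least 0.98. The log2 fold change was -1.15 ± 0.25 (SE over 2 arrays a group, limma, unadjusted p = 0.00497, adjusted p = 0.935), or 2.21-fold lower. Trem2 and Cd163 each kept an unadjusted p under 0.05 in all 13 alternative settings, including the 4 that left out an array. The settings reuse the same 4 arrays, and quantile normalization and the authors' deposited values are nearly the same, so they are not independent checks. Background correction by normexp brought Cd163, a dim probe, to -0.62. Their processed signals also separated the groups before scaling. Cd163 gave 48.1 and 29.0 on the KO arrays and 68.1 and 59.3 on the WT arrays. Trem2 gave 282 and 165 on the KO arrays and 431 and 379 on the WT arrays.

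Clec10a encodes a lectin of macrophages and dendritic cells that binds galactose and its N-acetylated form. It read 3.64 and 3.73 on the KO arrays, against 4.41 and 5.10 on the WT arrays. The KO values were close together and lay below both WT values, which differed by 0.68. The log2 fold change was -1.07 ± 0.32 (SE over 2 arrays a group, limma, unadjusted p = 0.0182, adjusted p = 0.935). Leaving out WT 2 brought it to -0.73 with an unadjusted p of 0.119 from limma, and 10 of the 13 settings kept an unadjusted p under 0.05. Mgl2, its neighbour in the genome and a related lectin, read -1.90 and -2.10 on the KO arrays and -2.01 and -1.76 on the WT arrays. Its groups overlapped, and its log2 fold change was -0.11 ± 0.25 (SE).

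**Figure D2:**
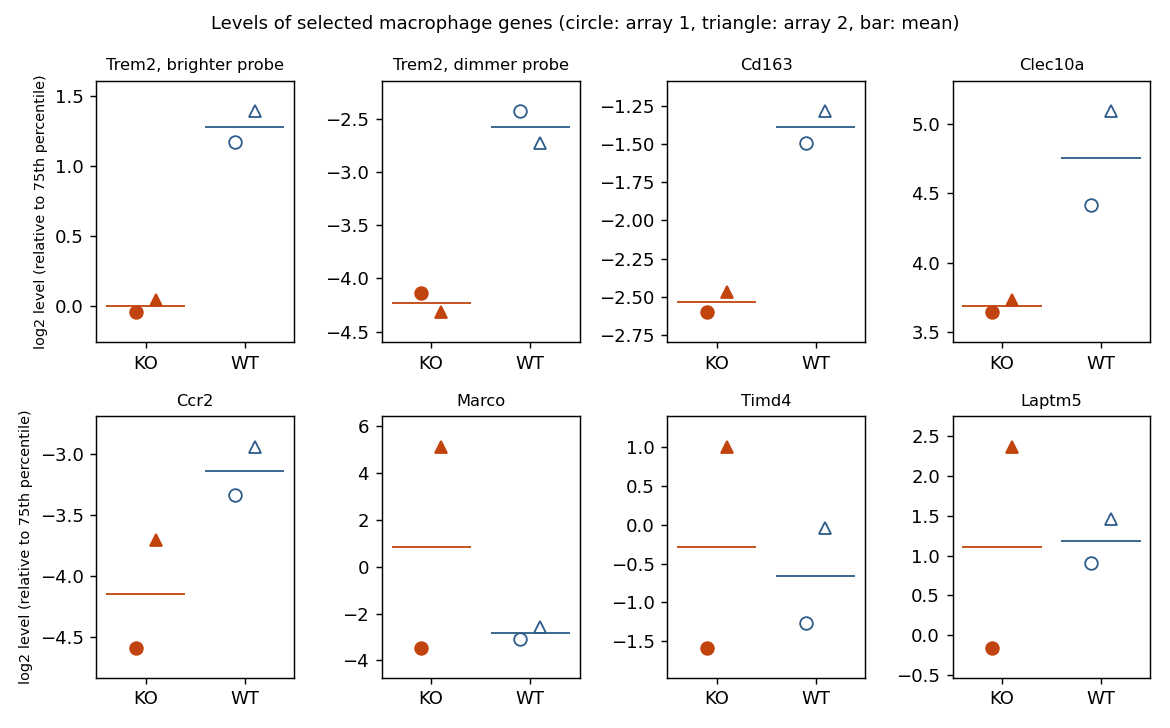
Log2 level relative to the array's 75th percentile (y axis, own scale in each panel) of 7 macrophage genes on the 2 KO and 2 WT arrays, with a bar at each group's mean. Both Trem2 probes, Cd163, Clec10a and Ccr2 have both KO arrays below both WT arrays, while Marco, Timd4 and Laptm5 are highest on KO 2 and lowest on KO 1.

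Resident scavenger genes were the largest role on the list, and 9 of their 10 fold changes were negative, with a median of -0.40. Over all tested genes 50.8% were negative, with a median of -0.0064. WT 2 was above WT 1 for 9 of the 10 genes, with a median difference of 0.83. With median scaling 6 of the 10 were negative, since Siglec1, Pf4 and Mgl2 turned positive. F13a1, the coagulation factor subunit that resident macrophages make, read 3.50 and 3.54 on the KO arrays, against 3.66 and 4.55 on the WT arrays. Mrc1, the mannose receptor, read -0.09 and -0.27 on the KO arrays, against -0.03 and 0.73 on the WT arrays. In both genes the groups were apart by a narrow margin (0.12 and 0.06), and WT 2 was the array that stood high. Their log2 fold changes were -0.59 ± 0.36 for F13a1 and -0.54 ± 0.34 for Mrc1 (SE).

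Folr2, a folate receptor of resident macrophages, read 2.22 and 1.83 on the KO arrays, against 2.18 and 3.08 on the WT arrays. KO 1 and WT 1 were almost level, and WT 2 alone was higher, with a log2 fold change of -0.60 ± 0.38 (SE). Stab1, a scavenger receptor shared with sinusoidal endothelium, read 1.38 and 1.25 on the KO arrays, against 1.75 and 1.41 on the WT arrays, and its second probe had a similar fold change (-0.26 ± 0.26 and -0.31 ± 0.26, SE). Pf4, a chemokine of platelets and resident macrophages, read 4.02 and 3.80 on the KO arrays, inside the WT range of 3.52 to 4.41.

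Siglec1 and Timd4 mark resident macrophages and, in lymph nodes, macrophages of the sinuses. Siglec1, which binds sialic acid, read -2.57 and -1.28 on the KO arrays, against -2.71 and -0.92 on the WT arrays. It followed the replicate number rather than the genotype label, with KO 2 and WT 2 both above KO 1 and WT 1. Timd4, a receptor for phosphatidylserine on dying cells, read -1.58 and 1.01 on the KO arrays, against -1.27 and -0.04 on the WT arrays. KO 2 was 6.04-fold above KO 1 for Timd4, so its log2 fold change of 0.37 ± 0.92 (SE) turned to -0.93 without KO 2.

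Marco, a class A scavenger receptor that binds bacteria and particles, gave the widest split between arrays on the list. It read -3.45 and 5.11 on the KO arrays, against -3.08 and -2.56 on the WT arrays. KO 2 stood alone: KO 1 was the lowest of the 4 arrays, and KO 2 was 376-fold above it. The processed signals were 26.7 and 5516 on the KO arrays and 22.6 and 24.5 on the WT arrays. The log2 fold change of 3.65 ± 2.65 (SE over 2 arrays a group, limma, adjusted p = 0.935) was the highest of the 13206 genes tested, and it turned to -0.63 without KO 2. Of the WT arrays, 1 had this probe well above background. Marco therefore passed the filter through the KO arrays alone, and its direction adds no support.

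Marco marks macrophages of the lymph node medulla and the splenic marginal zone, and lymphocyte markers were high on the same array. The 8 B cell markers summed to 0.640 and 24.3 multiples of the 75th percentile on the KO arrays, against 0.921 and 0.828 on the WT arrays. The 9 T and NK cell markers with a probe summed to 1.21 and 16.1 on the KO arrays, against 1.36 and 1.39 on the WT arrays. The fold change was positive for all 4 tested B cell markers and all 7 tested T and NK cell markers, against 49.2% of all tested genes. None passed the adjusted test. Only 2 of these B cell and 3 of these T and NK cell markers were well above background on all 4 arrays. Cd2 passed the filter through the KO arrays alone, so its direction adds no support. Ms4a1 and Cd79b for B cells and Cd3d and Cd2 for T cells were higher on KO 2 than on the other 3 arrays. No array had Pax5, Blk, Cd4 or Ncr1 well above background. The part of these cells in the Marco, Timd4 and Laptm5 values was not tested.

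**Figure D3:**
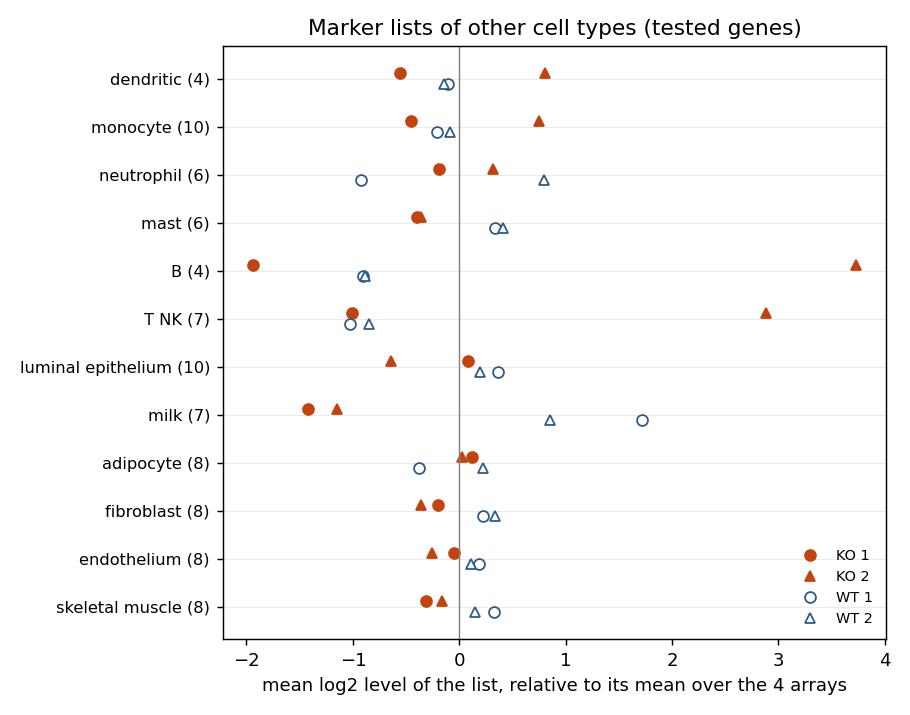
Mean log2 level of the tested genes of each marker list (number in brackets), relative to that list's mean over the 4 arrays, with 1 symbol per array. The B and T/NK lists stand at 3.73 and 2.88 on KO 2 and below 0 on the other 3 arrays, and for the mast, luminal epithelium, milk, fibroblast, endothelium and skeletal muscle lists both KO arrays lie left of both WT arrays.

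Msr1, the other class A scavenger receptor, read -3.15 and -2.0 on the KO arrays, against -3.21 and -2.28 on the WT arrays. It was higher on the second array of each group, and the groups overlapped, with a log2 fold change of 0.17 ± 0.51 (SE). A dimmer Msr1 probe gave -0.60 ± 0.65 (SE), and only KO 2 of the KO arrays had it well above background.

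General macrophage genes had small fold changes at their brightest probes. Csf1r, the receptor that macrophages need to survive, read 1.83 and 2.26 on the KO arrays, against 1.92 and 2.53 on the WT arrays, with a log2 fold change of -0.18 ± 0.33 (SE). Those ranges overlapped, although a dimmer Csf1r probe read -3.89 and -2.80 on the KO arrays and -2.32 and -2.40 on the WT arrays, without overlap (-0.99 ± 0.41, SE). Adgre1, which encodes the F4/80 antigen, read 1.02 and 1.05 on the KO arrays, against 1.30 and 1.70 on the WT arrays. Its groups did not overlap, and its log2 fold change was -0.47 ± 0.27 (SE over 2 arrays a group, limma, unadjusted p = 0.137).

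Aif1, which encodes the calcium-binding protein IBA1, read 0.25 and 0.79 on the KO arrays, around the WT values of 0.57 and 0.47. Mpeg1, a pore-forming protein of phagosomes, read 2.12 and 3.04 on the KO arrays, around the WT values of 2.80 and 2.61. In both genes the KO arrays lay on either side of the WT arrays. A dimmer Mpeg1 probe was not well above background on the KO arrays and was on 1 of the 2 WT arrays. It read below both WT arrays on both KO arrays and was not tested. Its bound was 1.84-fold lower, but the WT mean includes the array where it was not well above background, so this is not a strict bound. Itgam encodes the integrin CD11b of monocytes and macrophages, and its brightest probe was well above background only on KO 2 and WT 2 and was not tested. It read -4.61 and -2.99 on the KO arrays, against -4.58 and -2.98 on the WT arrays. A dimmer Itgam probe, which passed the filter through the KO arrays, read -4.43 and -4.17 on the KO arrays, against -3.77 and -4.05 on the WT arrays. Its groups did not overlap, and its log2 fold change was -0.39 ± 0.26 (SE).

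The receptors of recruited cells were dim. Ccr2, the receptor for CCL2 on inflammatory monocytes, read -4.58 and -3.71 on the KO arrays, against -3.34 and -2.94 on the WT arrays. It was not well above background on either KO array, and the measured means differed by 2.01-fold, lower on the KO arrays (limma, unadjusted p = 0.0431, adjusted p = 0.935). It entered the test through the WT arrays alone, where it was bright enough, and 5 of its 12 alternative settings kept an unadjusted p under 0.05. The log2 fold change was -0.73 with quantile normalization, -0.44 with normexp and -0.57 without KO 1. A dimmer Ccr2 probe, well above background on 1 array of each group and not tested, read -5.18 and -3.22 on the KO arrays and -3.40 and -3.47 on the WT arrays, so its groups overlapped. Cx3cr1, the fractalkine receptor, read -2.27 and -1.94 on the KO arrays, against -1.36 and -2.27 on the WT arrays. KO 1 and WT 2 were level and WT 1 stood highest, with a log2 fold change of -0.29 ± 0.38 (SE). Its dimmer probe did not rise well above background anywhere.

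**Figure D4:**
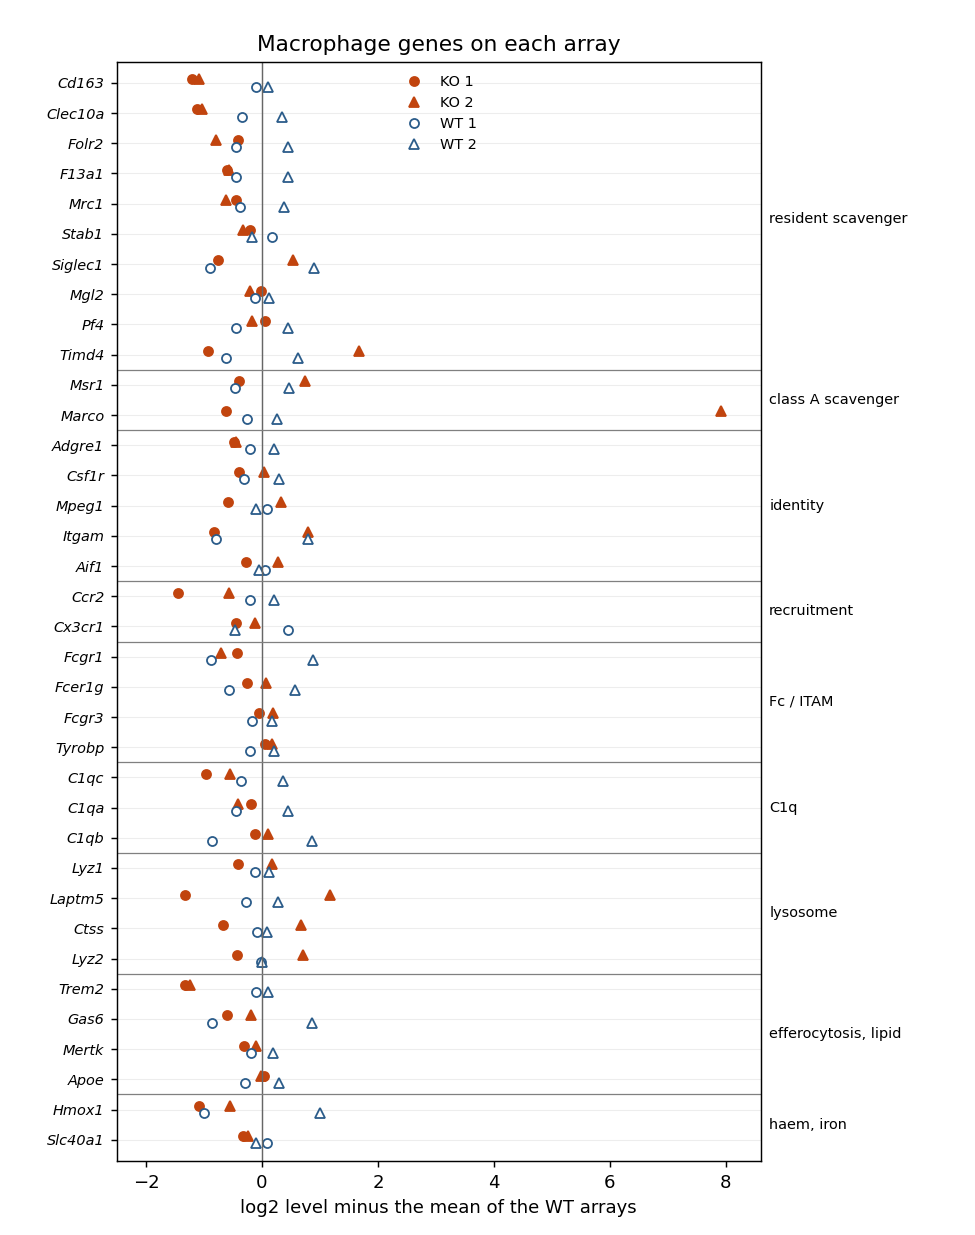
Log2 level of each of the 36 macrophage genes on each array, as the difference from the mean of the WT arrays (x axis), with genes grouped by role and KO drawn above WT in each row. Trem2, Cd163 and Clec10a have their KO arrays close together and more than 1 below the WT mean, and Marco on KO 2 lies 7.93 above it.

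Fc receptors and their signalling adaptors showed no separation. Fcgr1, the high-affinity IgG receptor, read -0.24 and -0.52 on the KO arrays, against -0.69 and 1.08 on the WT arrays. Fcer1g, the chain that couples Fc receptors to kinases, read 2.79 and 3.12 on the KO arrays, inside the WT range of 2.49 to 3.63. Both genes were high on WT 2 and lowest on WT 1, so the WT arrays enclosed the KO arrays. Tyrobp, the adaptor DAP12 through which TREM2 signals, read 2.63 and 2.75 on the KO arrays, against 2.37 and 2.77 on the WT arrays. Tyrobp therefore had a log2 fold change of 0.12 ± 0.27 (SE) where its partner Trem2 had -1.29. Fcgr3, a low-affinity IgG receptor, had 0.07 ± 0.27 (SE).

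The 3 chains of complement C1q, which tags immune complexes and dying cells, lie side by side in the genome but did not read alike. C1qc read 3.20 and 3.61 on the KO arrays, against 3.81 and 4.53 on the WT arrays, a log2 fold change of -0.76 ± 0.35 (SE over 2 arrays a group, limma, unadjusted p = 0.0771). Its groups did not overlap. C1qa read 2.32 and 2.10 on the KO arrays, against 2.07 and 2.96 on the WT arrays, and C1qb read 1.39 and 1.61 on the KO arrays, against 0.65 and 2.37 on the WT arrays. For C1qa and C1qb the WT arrays enclosed the KO arrays, with log2 fold changes of -0.30 ± 0.37 and -0.0095 ± 0.58 (SE). All 3 lie on chromosome 4, the chromosome of Stmn1, with 44 to 46 coding genes between them and Stmn1, and Laptm5 lies there too with 70 between.

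All 4 lysosomal genes read higher on KO 2 than on KO 1. Laptm5, a lysosomal membrane protein of leukocytes including lymphocytes, read -0.15 and 2.36 on the KO arrays, against 0.91 and 1.45 on the WT arrays. Ctss, the protease cathepsin S that processes antigen, read 3.14 and 4.49 on the KO arrays, against 3.73 and 3.89 on the WT arrays. In both genes KO 1 was the lowest array and KO 2 the highest, so the group means differed by little (log2 fold changes of -0.08 ± 0.83 and 0.0045 ± 0.48, SE). A second Laptm5 probe had the same order, with -2.66 and -0.17 on the KO arrays and -1.39 and -1.40 on the WT arrays. Lyz2 encodes the lysozyme of myeloid cells and Lyz1 that of the gut, and they are neighbouring, near-identical copies whose probes may read each other's RNA. Lyz2 read -0.66 and 0.48 on the KO arrays, against -0.24 and -0.22 on the WT arrays. Lyz1 read 1.79 and 2.37 on the KO arrays, against 2.08 and 2.32 on the WT arrays. KO 1 was the lowest array for both.

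Genes for clearing dying cells and handling lipid had Trem2 at one end and Apoe at the other. Apoe, which carries cholesterol out of macrophages and is made by adipocytes too, read 6.61 and 6.57 on the KO arrays, inside the WT range of 6.29 to 6.88 (5 of its replicate spots were outliers and left out), with a log2 fold change of 0.0079 ± 0.30 (SE). Mertk, a receptor that binds dying cells through GAS6, read -1.25 and -1.04 on the KO arrays, against -1.13 and -0.75 on the WT arrays. Its ligand gene Gas6 read 4.67 and 5.09 on the KO arrays, against 4.42 and 6.15 on the WT arrays. Gas6 was high on WT 2 alone, and its log2 fold change of -0.40 ± 0.60 (SE) turned to 0.46 without that array.

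Hmox1, the enzyme that breaks down haem, read 1.78 and 2.33 on the KO arrays, against 1.87 and 3.88 on the WT arrays. WT 2 was 4.02-fold above WT 1, and the log2 fold change of -0.82 ± 0.68 (SE) turned to 0.19 without WT 2. Slc40a1, the iron exporter ferroportin, read 0.78 and 0.86 on the KO arrays, against 1.20 and 1.01 on the WT arrays. Its groups did not overlap, and its log2 fold change was small (-0.28 ± 0.24, SE).

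Arrays of the same genotype label often differed by more than the groups did, about as often as over all genes. For 28 of the 35 tested genes, the arrays of at least 1 group differed by more than the group means did, against 77.6% of all tested genes. WT 2 was above WT 1 for 30 of the 35, with a median difference of 0.54, where 51.0% of all tested genes were higher on WT 2. KO 2 was above KO 1 for 27 of the 35, with a median of 0.23, where 51.3% of all tested genes were higher on KO 2. The genes that set WT 2 apart were Hmox1, Siglec1, Fcgr1, Gas6, C1qb and Fcer1g, each by more than 1 on the log2 scale, with Timd4 the remaining one. Besides Marco, those that set KO 2 apart by as much were Timd4, Laptm5, Ctss, Siglec1, Msr1 and Lyz2.

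**Figure D5:**
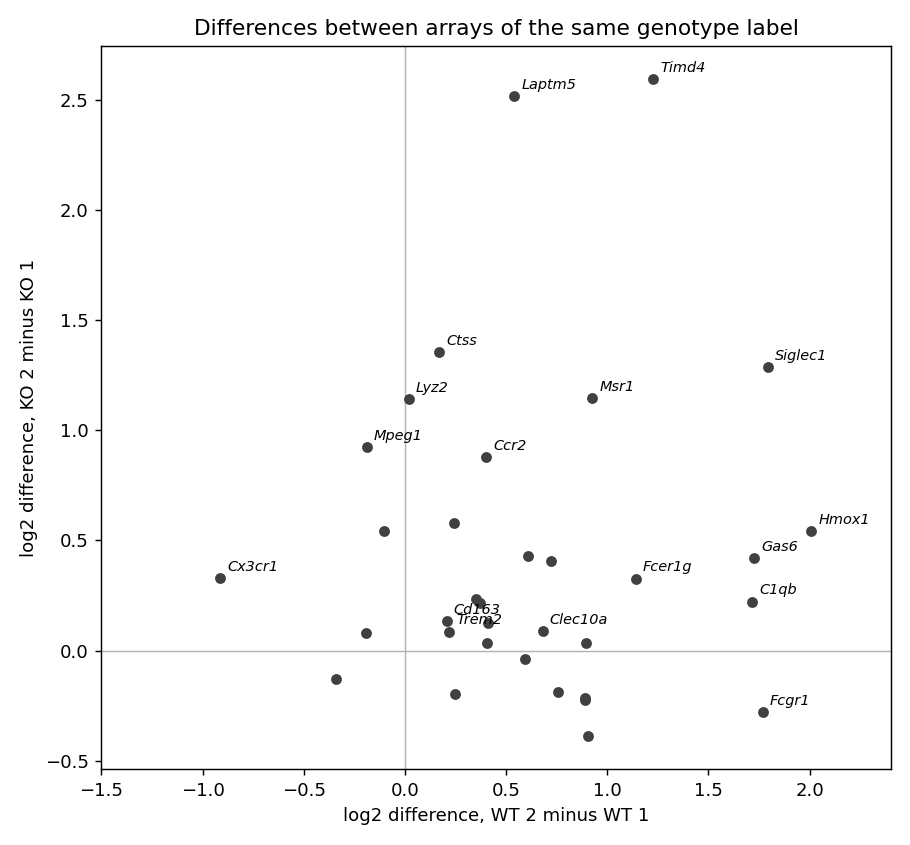
Log2 difference between the arrays of each group for 34 tested macrophage genes: WT 2 minus WT 1 on the x axis and KO 2 minus KO 1 on the y axis. Marco, at 0.52 and 8.55, is outside the frame. Most points lie right of 0 and above 0, and Trem2 and Cd163 lie close to 0 on both axes.

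Other genes of macrophage biology were read from lists for ligands, transcription factors, further macrophage genes, complement, Fc receptor partners, clearance of dying cells and iron. No gene of these lists passed the adjusted test. Of 15 tested ligands and growth factors 8 had positive and 7 negative fold changes, none with an unadjusted p under 0.05. Ccl24, an eosinophil chemokine that macrophages make, had -0.81 ± 0.35 (SE) and the monocyte chemokine Ccl12 had 0.82 ± 0.82. Transcription factors gave 6 positive and 8 negative of 14, with Klf4 at -0.50 ± 0.25 (SE).

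Of 33 further macrophage genes 14 were positive and 19 negative. At an unadjusted p under 0.05 limma gave 3 lower and 1 higher, against 2.41% and 1.14% of all tested genes. Spp1, which encodes osteopontin and is made by epithelium too, read 2.08 and 3.47 on the KO arrays, against 4.02 and 4.08 on the WT arrays. Gpnmb, a glycoprotein of lysosome-rich macrophages, read -3.04 and -2.73 on the KO arrays, against -1.59 and -2.28 on the WT arrays. Retnla, a secreted protein of alternatively activated macrophages and of fat, read 5.37 and 5.15 on the KO arrays, against 5.98 and 6.14 on the WT arrays. In all 3 both KO arrays lay below both WT arrays, with log2 fold changes of -1.27 ± 0.49, -0.95 ± 0.33 and -0.80 ± 0.25 (SE). The inflammatory cytokine gene Tnf was not well above background on the WT arrays and was at least 2.33-fold higher on the KO arrays, where it read -3.54 and -1.98. Tnf, the 1 higher gene, passed the filter through the KO arrays alone, so its direction adds no support.

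Complement genes other than C1q gave 3 positive and 8 negative of 11, with C1ra at -0.51 ± 0.29 and C3ar1 at -0.45 ± 0.45 (SE). Fc receptor partners gave 5 and 3 of 8, with the kinase Fgr at 0.76 ± 0.89 and Fcgr4 at -0.57 ± 0.37 (SE). Genes for clearing cells and lipid gave 2 positive and 8 negative of 10, with the lysosomal lipase Lipa at -0.52 ± 0.24 and the GAS6 receptor Axl at -0.47 ± 0.27 (SE). Iron and haem genes gave 7 and 4 of 11, with the ferritin chain Fth1 at -0.94 ± 0.33 and transferrin (Trf) at -0.64 ± 0.36 (SE).

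Sums of mast cell, fibroblast and milk markers were also lower on both KO arrays than on either WT array, beside Trem2, Cd163 and Clec10a. Of all tested genes, 50.8% had a negative fold change, and limma gave 2.41% lower at an unadjusted p under 0.05. Mast cell markers were negative for all 6 tested, 4 with an unadjusted p under 0.05 (Cpa3, Tpsb2, Cma1 and Mcpt4). The 8 with a probe summed to 7.59 and 6.67 multiples of the 75th percentile on the KO arrays and 11.6 and 12 on the WT arrays. Fibroblast markers were negative for all 8, among them Fn1 and Col3a1 with an unadjusted p under 0.05, and summed to 253 and 259 on the KO arrays and 388 and 385 on the WT arrays. Milk genes were negative for all 7 tested, 6 of them with an unadjusted p under 0.05 (Folr1, Csn3, Wap, Csn1s1, Csn1s2a and Csn2). Wap entered the test through the WT arrays alone, so its direction adds no support. The 8 milk genes with a probe summed to 8.25 and 21.5 on the KO arrays and 173 and 46.2 on the WT arrays. These sums include the milk gene that was not tested, whose level on KO 2 is not given here. They do not describe the 7 tested genes alone.

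Endothelial markers were negative for all 8 (Erg and Cdh5 had the lowest fold changes). Luminal epithelial markers were so for 9 of 10 (Prss8 without overlap, Ehf with overlap) and skeletal muscle markers for 7 of 8 (Pvalb and Ryr1). Both KO arrays lay below both WT arrays for 3 endothelial, 2 luminal and 4 muscle markers, against 17.8% of all tested genes. Luminal sums overlapped (128 and 82.2 on KO, 120 and 145 on WT), as did muscle sums (478 and 694, against 728 and 692). Endothelial sums did not (37.3 and 30.2, against 39.4 and 38.7). Adipocyte markers were positive for 5 of 8, with Lep and Pnpla2 highest. Ms4a2 of the mast cell list was well above background nowhere, and every marker of the other 6 lists named here was so on at least 1 array. The part of these cells in the macrophage values was not tested.

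Most markers of other myeloid cells overlapped between the groups, as most of all tested genes did. Monocyte markers were positive for 4 and negative for 6 of 10, neutrophil markers positive for 4 of 6 and dendritic cell markers positive for all 4 tested. Of all tested genes, 49.2% were positive. Both KO arrays lay below both WT arrays for 1 monocyte and 1 neutrophil marker, against 17.8% of all tested genes. Spn, which lymphocytes share with monocytes, and the dendritic cell genes Batf3 and Cd83 were highest on KO 2. Ltf was lowest on WT 1, and Cxcr2, with both KO arrays below both WT arrays, was well above background on 1 of the 2 WT arrays. Xcr1 and Cd209a of the dendritic list and Csf3r, Camp and Elane of the neutrophil list were well above background nowhere. The part of these cells was not tested.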

How the data were processed

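The authors deposited Agilent Feature Extraction spot intensity files (version 11.5.1.1 per the file headers, 10.7.3.1 per the submitters' processing notes), with background subtracted and spatial trends corrected within each array and nothing done between arrays. All 4 arrays share 1 scan, per the file headers. The authors also deposited log2 values, which the design text ascribes to GeneSpring. They matched quantile-normalized log2 signals centred on each probe's median (r of 0.99999 or more, column medians -0.018 to 0.018), which settled their scale, centring and direction.

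Processed intensities were scaled to the 75th percentile of each array (144 to 292) and log2-transformed, after leaving out control spots and 35 to 73 outlier spots per array. Replicate spots were averaged. Of 41174 probes 24188 were tested. Accessions were matched to RefSeq (GRCm38.p6), which named 27816 probes. limma 3.58.1 in R 4.3.3 (lmFit, eBayes) compared KO with WT, and p-values were adjusted by Benjamini-Hochberg across every tested probe. Steps were tested on simulated data. The text names all members, their other probes that differ by over 0.5, Stmn1, and from each other list the genes whose groups did not overlap at an unadjusted p under 0.05, or else those with the largest fold changes. Some genes that this rule names are not reported here. The members and lists were chosen with earlier results of these data known. A bound sets the brighter group's mean against, on each array of the dimmer group, the higher of the probe's own level and the lowest level well above background. Array number limits the precision: an exact permutation test of 2 against 2 arrays cannot go below p = 0.333. No interval for counting error applies.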

Additional observations from a re-analysis of the deposited data

How the results depend on the processing

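Of 313 fold changes of macrophage genes over 9 settings that kept all arrays, 293 kept their direction and 20 reversed. The cause of the reversals was not tested. With median scaling, Trem2 and Cd163 stayed below 0, but C1qb was 0.17, Siglec1 0.062, Mpeg1 0.051, Laptm5 0.10, Fcer1g 0.075, Pf4 0.12, Mgl2 0.063 and Lyz1 0.054, and the median of the list was -0.0066. That setting gave 5 genes called lower in all (none on the list), 1 macrophage gene higher and 2 lower at an unadjusted p under 0.05, 1 with both KO arrays above both WT arrays and 5 below. The matching shares of all tested genes under that setting are not given here. Quantile normalization and the authors' deposited table each gave Siglec1 0.050 and Ctss -0.034. The normexp correction, run on median spot signals and chosen after seeing the data because the files hold no mean signal column, gave C1qb 0.17, Aif1 -0.095, Laptm5 0.14, Fcer1g 0.10, Pf4 0.11, Fcgr3 -0.23 and Msr1 -0.086, with both KO arrays above for 1 gene. The planned version on mean signals was not run. The mean over probes gave Msr1 -0.18.

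Leaving out 1 array leaves a lone sample in its group, which is assumed to vary like the other group, and 35 of 140 fold changes then reversed. The median of the list ran from -0.48 to 0.09. The counts that follow set 1 array against 2, and such groups fall apart more readily than 2 against 2. They therefore cannot be set against the 17.8% of all tested genes with both KO arrays below both WT arrays. The matching shares of all tested genes with 1 array left out are not given here, so these counts show no excess on the list. Genes with an unadjusted p under 0.05 numbered 0 to 3 higher and 2 to 9 lower, and those with all KO arrays above or below all WT arrays numbered 0 to 11 and 11 to 24. No macrophage gene was called in any setting, the lowest adjusted p being 0.0645 from limma without KO 1, for Marco. The fold changes that reversed ranged from -0.27 to 0.27 for Aif1, -0.29 to 0.30 for Apoe, -0.74 to 0.15 for C1qa, -0.87 to 0.85 for C1qb, -0.48 to 0.12 for Csf1r, -0.67 to 0.68 for Ctss, -0.74 to 0.17 for Cx3cr1 and -0.67 to 0.47 for Fcer1g. They ranged from -1.46 to 0.31 for Fcgr1, -0.11 to 0.24 for Fcgr3, -1.26 to 0.46 for Gas6, -1.82 to 0.19 for Hmox1, -1.33 to 1.18 for Laptm5, -0.41 to 0.17 for Lyz1, -0.42 to 0.72 for Lyz2 and -0.63 to 7.93 for Marco. For Mgl2 the range was -0.24 to 0.013, for Mpeg1 -0.59 to 0.34, for Msr1 -0.40 to 0.74, for Pf4 -0.50 to 0.39, for Siglec1 -1.01 to 0.78, for Timd4 -0.93 to 1.67 and for Tyrobp -0.086 to 0.32.

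The labels' replicate numbers are shared between KO and WT but nothing says they pair the samples, and the differences between replicates correlated at 0.0648 over 24184 probes. With the number as a replicate block the median stayed at -0.18, 0 genes were called, and 5 macrophage genes had an unadjusted p under 0.05, all lower. Dim probes limit Ccr2, Itgam, Marco and the second probes of Trem2 and Mpeg1.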
